A study of Mus musculus with 58 samples.

Results

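Erythroid transcripts were followed library by library through the RNA-seq of purified mouse hematopoietic stem cells (HSCs). The 9 genes are the alpha-globin genes Hba-a1 and Hba-a2, the beta-globin genes Hbb-bs and Hbb-bt, Alas2, Slc4a1, Klf1, Gata1 and Epor. They were chosen by symbol with their levels in these libraries already known, out of 55376 genes in the count tables, and all 9 are present in each of the 34 RNA libraries. The question put to them is whether globin RNA and the erythroid regulators followed the diet groups and the knockdowns together or apart. Since the levels chose the members, levels are given as a description, and tests of the members are not independent evidence of a direction. The labels do not say that replicates were separate animals, so p-values refer to these samples only. The tests also share variance information across genes, so a p-value does not rest on a gene's own spread alone.

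The study asked how calorie restriction (CR) changes HSCs during aging. Old male C57BL/6 mice, 24 to 26 months of age, had been fed ad libitum for life (OAL, n = 4), kept on 40% less food from 3 to 4 months of age onward (OCR, n = 4), or refed ad libitum for 4 weeks after lifelong restriction (OCRRF, n = 2). Young mice of 3 to 4 months were fed ad libitum (YAL, n = 4), restricted by 20% for a week and then by 40% for 3 more weeks (YCR, n = 4), or restricted and then refed for 4 weeks (YCRRF, n = 4). Their HSCs were sorted as propidium iodide-negative, lineage-, Sca-1+, c-Kit+, CD34-, Flk2-, CD150+ cells, and the lineage antibodies included Ter119, a surface antigen of maturing red cells. In a second experiment about 500 HSCs of aged donors were infected with lentivirus and transplanted into lethally irradiated female CD45.1 mice, from which donor-derived HSCs were re-sorted as CD45.2+ CD48- CD150+ cells of the lineage-, Sca-1+, c-Kit+ compartment. The viruses carried a GFP-marked Kdr short hairpin (GFP_Kdr_shRNA, n = 4) or a scrambled control (GFP_Scramble, n = 2), or Kdr together with either of a pair of mCherry-marked Bmpr1a hairpins (Double_KdrBmpr_shRNA1 and Double_KdrBmpr_shRNA2, n = 2 each) or the scrambled controls (Double_Scramble, n = 2). These cells had passed through infection, an irradiated host and a second sort, in scrambled and knockdown groups alike, and came from another kit and sequencer than the diet libraries.

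Red cell production starts from HSCs and runs through progenitors that respond to erythropoietin. Gata1 is a zinc-finger transcription factor needed for erythroid and megakaryocytic maturation, Klf1 is an erythroid zinc-finger factor that binds CACCC boxes, and Epor encodes the erythropoietin receptor, which signals through JAK2 and STAT5. These regulators come on before the products of the mature cell. Hemoglobin is built from alpha- and beta-globin chains and heme, whose synthesis in red cells is limited by the enzyme ALAS2. Slc4a1 encodes band 3, the anion exchanger of the red cell membrane. Globin RNA is extremely abundant in erythroblasts and reticulocytes, so that small amounts of it can be seen in RNA of other cells.

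The diet libraries held 11102898 to 36579392 counts and the transplanted libraries 35657999 to 44780217. All 10 stem cell markers on a fixed list (among them Procr, Slamf1, Kit, Ly6a, Mecom, Hlf, Fgd5 and Hoxb5) had reads in every library, with summed levels of 2659 to 5342 CPM (counts per library scaled to a common total). Libraries of old mice detected 42071 to 46646 genes, those of young mice 22209 to 33496 and the transplanted ones 23453 to 25447, so detection moved with age and experiment and cannot be told apart from either. YCRRF replicate 3 stood apart by a mitochondrial share of 4.09%, against 1.09 to 1.67% in the other young libraries. Levels below are CPM scaled by TMM factors, computed separately for the 22 diet and the 12 transplanted libraries.

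The alpha-globin genes are neighbours on chromosome 11 (Hba-a1, chr11:32283511-32284465, plus strand; Hba-a2, chr11:32296489-32297298, plus strand) and the beta-globin genes on chromosome 7 (Hbb-bs, chr7:103826534-103828096, minus strand; Hbb-bt, chr7:103812524-103813996, minus strand; mm10, GENCODE models). The spliced transcripts of Hba-a1 and Hba-a2 were identical at 537 of 538 aligned bases (99.8%) and those of Hbb-bs and Hbb-bt at 580 of 626 (92.7%). Of the 50-base stretches of Hba-a1 and of Hbb-bs, 67.5% and 65.8% also occurred in the partner gene. How the counting treated reads that match both copies is not given in the sources used here, so the split within each pair is uncertain. The globin promoters are shown because they share motifs while their transcripts behaved differently, with Klf1 beside them as a regulator. Each is the 120 bases before the RefSeq start site in GRCm38.p6, written 5′ to 3′ on the gene's strand. RefSeq starts differ from those of the GENCODE models. The Hba-a1 and Hbb-bs stretches therefore lie inside their GENCODE models, and the others shown overlap theirs in part. Capitals mark motifs found on either strand. The Klf-type motif is the letters CACCC. The CAAT box motif used for the search was CCAAT. The core promoter motif searched was TATAA. The Gata-type motif searched was AGATAA.
Hba-a1 (chr11:32283552-32283671, plus strand): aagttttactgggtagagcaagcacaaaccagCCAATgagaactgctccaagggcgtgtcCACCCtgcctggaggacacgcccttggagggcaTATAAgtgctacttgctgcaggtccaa
Hba-a2 (chr11:32296372-32296491, plus strand): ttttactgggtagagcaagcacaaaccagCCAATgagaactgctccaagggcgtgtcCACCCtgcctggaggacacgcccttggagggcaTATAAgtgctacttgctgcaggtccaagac
Hbb-bs (chr7:103827929-103828048, minus strand): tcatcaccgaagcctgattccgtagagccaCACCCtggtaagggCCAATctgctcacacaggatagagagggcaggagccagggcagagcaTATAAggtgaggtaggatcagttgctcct
Hbb-bt (chr7:103813924-103814043, minus strand): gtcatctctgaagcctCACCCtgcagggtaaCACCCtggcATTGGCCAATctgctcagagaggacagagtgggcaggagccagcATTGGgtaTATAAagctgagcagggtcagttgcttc
Klf1 (chr8:84901862-84901981, plus strand): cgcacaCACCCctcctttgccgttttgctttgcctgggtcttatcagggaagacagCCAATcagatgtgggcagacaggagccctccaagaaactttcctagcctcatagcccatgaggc

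All 4 globin promoters held the first 3 of these motifs. Among the 8 members with a promoter sequence, the Klf-type motif occurred in 7 (31.7% of 32851 promoters of the same length), the CAAT box in 5 (21.3%), the core promoter motif in the 4 globins only (11.8%) and the Gata-type motif in Alas2 and Epor (4.36%). Hbb-bt held 2 Klf-type and 3 CAAT box matches, a pair of the latter lying end to end on opposite strands, against 1 of each in Hbb-bs. Only these exact letters were searched, so a promoter without a match may still hold a variant of the motif. A match describes letters and not an occupied site. Slc4a1 has no sequence here.

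Globin RNA was present in every library and was a very small part of each. The 4 globin genes together took 0.000845 to 0.0295% of all counts, which was 127 to 10997 reads a library. Per kilobase of exon, the OAL medians ran from Hbb-bs (98.0 CPM per kb) through Hba-a1 (40.9), Hbb-bt (31.2), Hba-a2 (20.95), Epor (5.29), Alas2 (2.67), Klf1 (1.56) and Gata1 (1.23) to Slc4a1 (0.423). In YAL the same scale put Hbb-bt first (16.0 CPM per kb), then Epor (8.13), Hbb-bs (5.12), Klf1 (4.96), Gata1 (3.94) and Hba-a1 (3.51). By median every globin lay above every regulator in OAL. In YAL Epor lay above Hbb-bs, and Epor, Klf1 and Gata1 above Hba-a1. The highest YAL library held 55.25 CPM per kb of Hbb-bs, far from that median.

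Hbb-bs, Hba-a1 and Hba-a2 were the variable members. Hbb-bs, an adult beta-globin gene, spanned 140-fold over the 34 libraries (0.863 to 121 CPM) and Hba-a1 spanned 295-fold (0.282 to 83.2 CPM). Hba-a2 ran from 0 reads in YCRRF replicates 1 and 4, where 3 counts would be 0.0820 and 0.270 CPM, to 44.2 CPM. Hbb-bt spanned only 8.09-fold (6.05 to 48.9 CPM) and was never near 0.

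**Figure D1:**
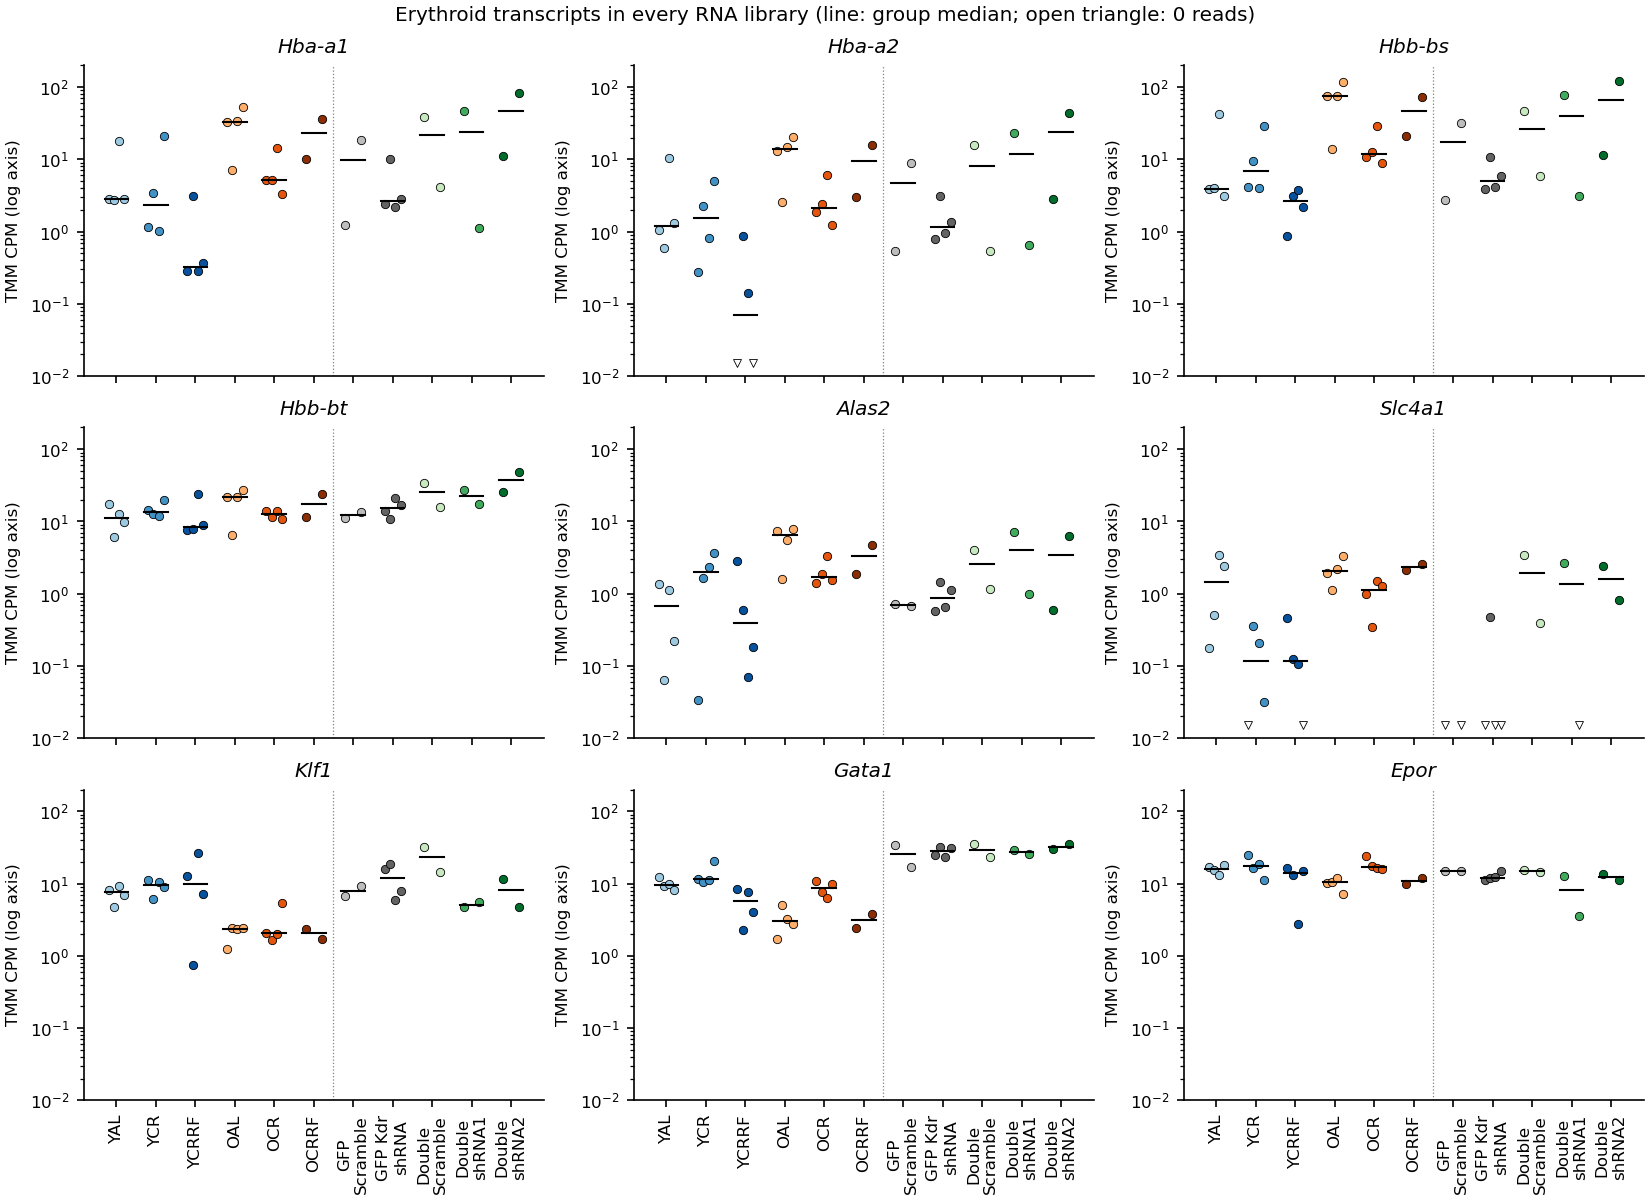
Level of each erythroid gene in each of the 34 RNA libraries, by group (TMM CPM, log axis; line, group median; open triangle, 0 reads; the dotted line separates the diet and transplanted experiments, which were normalized separately). Hba-a1, Hba-a2 and Hbb-bs scatter widely within groups, Hbb-bt stays between 6.05 and 48.9 CPM, and Gata1 and Epor sit higher in all 4 OCR libraries than in all 4 OAL libraries.

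Spread within a group was often as large as that between groups. Hbb-bs was 3.90, 3.97, 42.4 and 3.07 CPM in the YAL libraries, so 1 library held far more than the other 3. In YCR it was 4.11, 9.53, 4.04 and 29.2 CPM, and in YCRRF 0.863, 3.06, 3.74 and 2.19 CPM. Among transplanted cells the paired groups split the same way, with 45.8 and 5.95 CPM in Double_Scramble, 76.9 and 3.05 CPM in Double_KdrBmpr_shRNA1, 11.3 and 121 CPM in Double_KdrBmpr_shRNA2 and 2.75 and 31.5 CPM in GFP_Scramble. Hbb-bs was narrower in GFP_Kdr_shRNA (3.905, 10.8, 4.15 and 5.82 CPM). The ranges of neighbouring groups overlapped throughout the order OAL, OCRRF, OCR, YCR, YAL, YCRRF by median Hbb-bs (75.3, 46.7, 11.65, 6.82, 3.94 and 2.625 CPM).

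Alpha-globin followed Hbb-bs from library to library. After group means were removed, log2 CPM of Hba-a1 and Hbb-bs correlated with r = 0.86 over the 22 diet libraries and 0.99 over the 12 transplanted ones, and Hba-a1 with Hba-a2 with r = 0.92 and 0.98. These are descriptions, since points share a library and its depth and near-identical copies may share reads. The ratio of Hba-a1 plus Hba-a2 to Hbb-bs counts was 0.507 to 0.717 in the 10 old libraries whatever their globin level, 0.578 to 1.22 in the transplanted ones and 0.113 to 1.36 in the young ones, where counts were lowest. Hba-a1 made up 68.6 to 77.1% of the alpha-globin counts in the old libraries.

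Hbb-bt behaved otherwise. It followed Hbb-bs only loosely (group-centred r = 0.62 and 0.64), and its counts exceeded those of Hbb-bs in 20 of 34 libraries, of which 2 were old, 10 young and 8 transplanted. In the 13 libraries with under 5 CPM of Hbb-bs, Hbb-bt was still 6.05 to 23.8 CPM (median 11.9), while Hba-a1 was 0.282 to 3.06 CPM (median 1.22). In the 6 libraries with at least 50 CPM of Hbb-bs, Hbb-bt was 21.8 to 48.9 CPM (median 25.3) and Hba-a1 33.0 to 83.2 CPM (median 41.4). Thus Hbb-bt made 12.3% of the globin counts in OAL replicate 4, where Hbb-bs was 118 CPM, and 87.1% in YCRRF replicate 1, where Hbb-bs was 0.863 CPM.

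**Figure D2:**
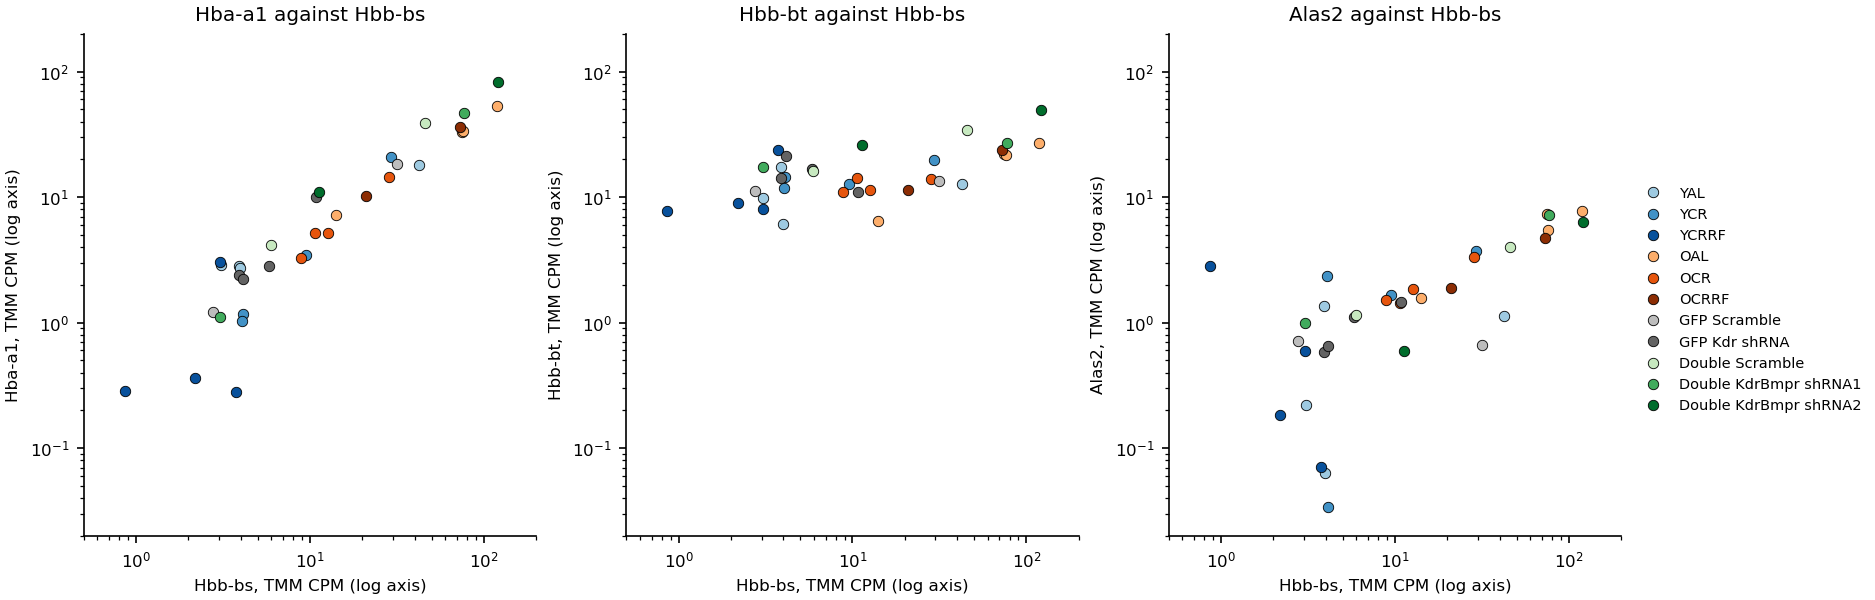
Hba-a1, Hbb-bt and Alas2 against Hbb-bs in the 34 RNA libraries (TMM CPM, log axes; 1 point a library, coloured by group). Hba-a1 lies along a line from 0.282 to 83.2 CPM, Hbb-bt stays above 6.05 CPM where Hbb-bs is low, and Alas2 scatters over the libraries with under 5 CPM of Hbb-bs.

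Alas2 and Slc4a1 were sparse. Alas2 lay between 0.0343 CPM (1 read, YCR replicate 1) and 7.75 CPM (OAL replicate 4), with group-centred r = 0.37 to Hbb-bs in the diet libraries and 0.85 in the transplanted ones. The YCRRF library lowest in Hbb-bs (replicate 1, 0.863 CPM) had the highest Alas2 of its group, at 2.82 CPM. Slc4a1 never passed 3.47 CPM and had no read in 8 libraries, including both GFP_Scramble libraries, where 3 counts would be 0.0800 and 0.0721 CPM. It had 3 reads or fewer in 11 libraries, too few to be followed there.

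From library to library the correlations of the regulators with Hbb-bs and Hba-a1 were below 0 but mostly weak in the diet libraries. Group-centred r with Hbb-bs was there -0.10 for Klf1, -0.13 for Gata1 and -0.44 for Epor, and with Hba-a1 it was -0.47, -0.25 and -0.16. Over the transplanted libraries r was 0.06, 0.08 and 0.54 with Hbb-bs and 0.17, 0.08 and 0.57 with Hba-a1. The weight of single libraries in these values was not tested. YCRRF replicate 2 had the lowest Klf1 of all (0.749 CPM) and the highest Hba-a1 of its group (3.06 CPM). The lowest Epor of the transplanted libraries (3.56 CPM) was in Double_KdrBmpr_shRNA1. Klf1 and Gata1 went together in the diet libraries (r = 0.69) but not in the transplanted ones (r = 0.08). The weight of YCRRF in the former, where Klf1 spread most widely, was not tested. In the 6 libraries with at least 50 CPM of Hbb-bs, Klf1 was 1.235 to 4.79 CPM, and in the 13 libraries under 5 CPM it was 0.749 to 26.5 CPM. The highest Klf1 level of all, 31.9 CPM, came with 45.8 CPM of Hbb-bs in Double_Scramble replicate 1, and the lowest, 0.749 CPM, with 3.06 CPM in YCRRF replicate 2.

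**Figure D3:**
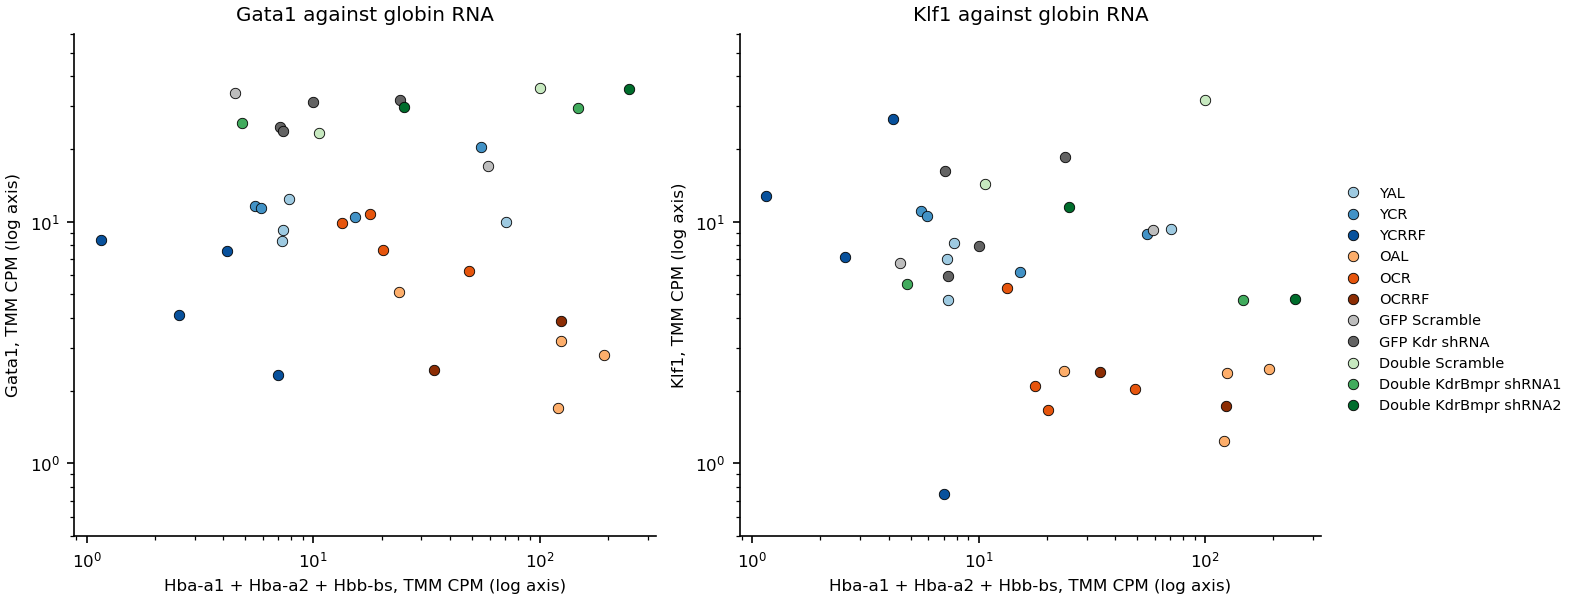
Gata1 and Klf1 against the sum of Hba-a1, Hba-a2 and Hbb-bs in the 34 RNA libraries (TMM CPM, log axes; 1 point a library, coloured by group). Gata1 separates OCR (6.26 to 10.8 CPM) from OAL (1.69 to 5.10 CPM) at globin sums of 13.4 to 48.8 against 23.8 to 191 CPM, and transplanted cells hold 16.9 to 35.9 CPM of Gata1 at every globin level.

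Lifelong restriction came with less globin RNA and more Gata1 and Epor. Hbb-bs was 74.7, 14.1, 75.9 and 118 CPM in OAL and 10.6, 12.7, 28.45 and 8.87 CPM in OCR, with OAL replicate 2 inside the OCR range. The difference was -2.22 ± 0.35 on the log2 scale (SE), from a mean of 70.7 ± 42.85 to 15.2 ± 9.00 CPM (SD, n = 4 each). Each SE here and below comes from edgeR's fit, which shares variance information across genes. It is not the spread of the gene's own libraries. Hba-a1 differed by -2.17 ± 0.37 and Hba-a2 by -2.13 ± 0.39, Alas2 by -1.44 ± 0.32 and Slc4a1 by -1.06 ± 0.36. Hbb-bt differed least among the globins, by -0.60 ± 0.23. Summing the near-identical copies gave -2.16 ± 0.37 for alpha-globin and -1.69 ± 0.30 for beta-globin.

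Gata1 was 1.69, 5.10, 3.21 and 2.80 CPM in OAL and 10.8, 7.61, 6.26 and 9.92 CPM in OCR, without overlap, a difference of 1.46 ± 0.24. Epor was 10.4, 10.7, 11.9 and 7.30 CPM in OAL and 24.4, 17.7, 16.2 and 16.1 CPM in OCR, again without overlap, a difference of 0.91 ± 0.15. Klf1 was 1.235, 2.41, 2.37 and 2.46 CPM in OAL and 2.09, 1.67, 2.03 and 5.33 CPM in OCR, so a single OCR library lay above the OAL range. A gene is called here where edgeR's quasi-likelihood test gave a Benjamini-Hochberg adjusted p under 0.05 and a fold over 1.2. In this contrast 6 of the 9 members (Hba-a1, Hba-a2, Hbb-bs, Alas2, Gata1 and Epor) were called, where 5.57% of 27150 genes were. The members were chosen with this contrast known, so nothing is read from that count. Fewer erythroid cells or transcripts carried into the sort, and less of a transcript per HSC, cannot be told apart in these bulk libraries.

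After refeeding, 5 members were called by edgeR's quasi-likelihood test in OCRRF versus OCR, against 3.41% of 32577 genes. This contrast shares the OCR libraries with the one above. Gata1 fell to 2.44 and 3.86 CPM, below every OCR library, by 1.53 ± 0.26 on the log2 scale (adjusted p = 0.00013). Epor fell to 9.94 and 12.0 CPM, also below every OCR library, by 0.82 ± 0.18 (adjusted p = 0.0054). Hbb-bs was 20.9 and 72.5 CPM and higher by 1.56 ± 0.28 (adjusted p = 0.00035). Hba-a1 was 10.2 and 35.9 CPM (1.66 ± 0.32, adjusted p = 0.00095) and Hba-a2 3.02 and 15.7 CPM (1.64 ± 0.39, adjusted p = 0.010).

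The globin calls rested on 1 of the 2 refed libraries. Without OCRRF replicate 2 the log2 fold changes were 0.55 for Hba-a1, 0.08 for Hba-a2 and 0.47 for Hbb-bs, none of them called, while Gata1 (-1.83, adjusted p = 0.00026) and Epor (-0.91, adjusted p = 0.026) remained called. Without OCRRF replicate 1 Epor was -0.73 with adjusted p = 0.17. Without OCR replicate 1 or 4 Hba-a2 was not called (adjusted p = 0.090 and 0.063). DESeq2 called Gata1 and Epor only, with adjusted p of 0.15 for Hba-a1, 0.22 for Hba-a2 and 0.13 for Hbb-bs. Hbb-bt (0.41 ± 0.20), Alas2 (0.63 ± 0.35), Slc4a1 (1.14 ± 0.41) and Klf1 (-0.49 ± 0.38) did not pass the test.

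**Figure D4:**
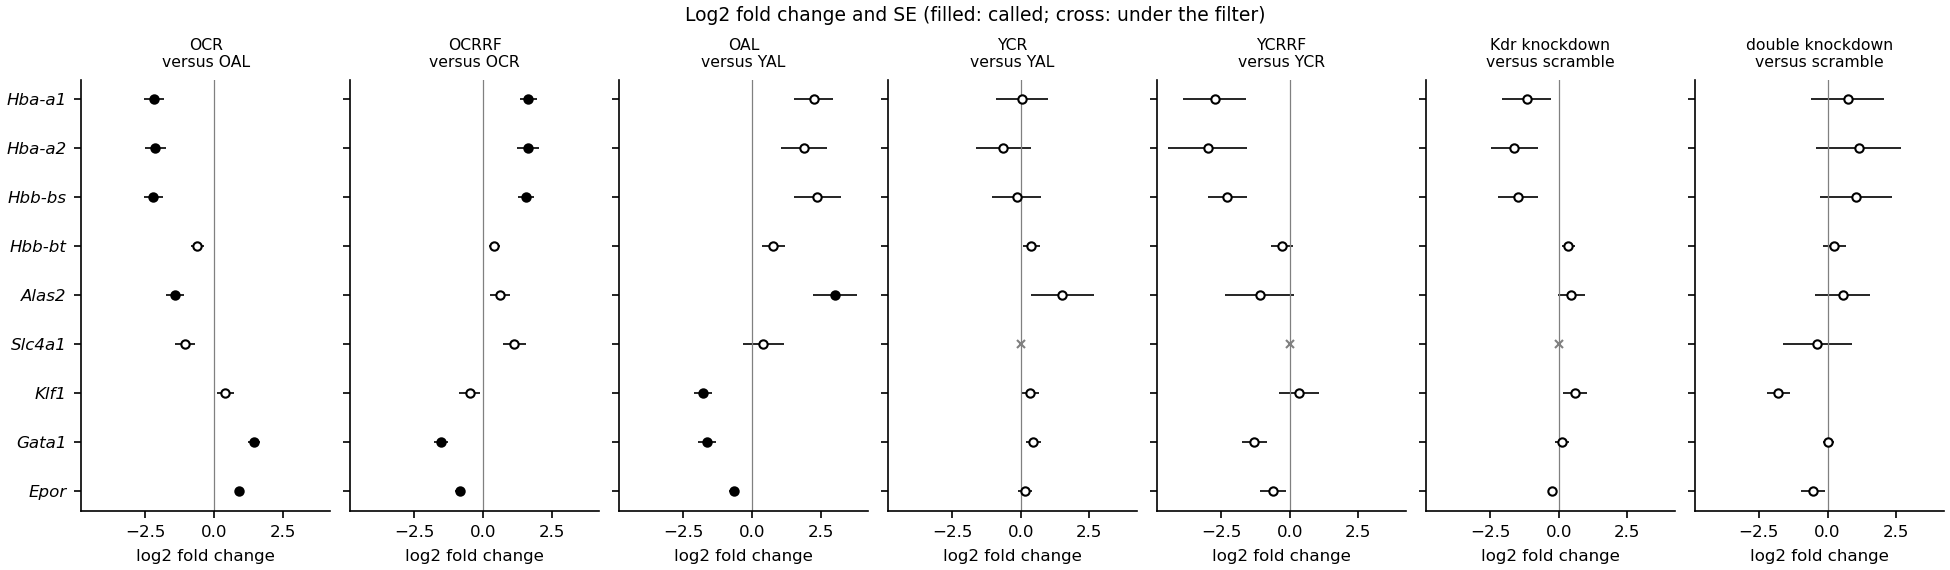
Log2 fold change of each erythroid gene in 7 comparisons (points, edgeR estimate; bars, SE; filled, adjusted p and fold past the thresholds; cross, under the count filter). Hba-a1, Hba-a2 and Hbb-bs lie at -2.13 to -2.22 in OCR versus OAL, where Gata1 lies at 1.46, and on the opposite sides in OCRRF versus OCR. The bars are wider in the young and transplanted comparisons. They come from a fit that shares variance information across genes and do not show each gene's own spread.

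Markers of other blood cells were set beside these differences. All 10 neutrophil markers had reads in every OAL and OCR library, with sums of 252 to 383 and 218 to 328 CPM, and 326 to 355 CPM in OCRRF. All 9 B and plasma cell markers did too, with sums of 43.0 to 268 CPM in OAL, 42.3 to 49.6 CPM in OCR and 51.5 to 57.0 CPM in OCRRF. All 8 macrophage markers did as well, at 26.5 to 59.0, 37.1 to 43.6 and 31.8 to 35.0 CPM, as did all 8 megakaryocyte and platelet markers, at 764 to 1007, 662 to 865 and 821 to 949 CPM. In OAL and OCR most of the neutrophil sum was Prtn3 (means of 275 and 205 CPM). Most of the megakaryocyte and platelet sum was Vwf (605 and 454 CPM). There these sums mainly follow 1 gene each and do not measure the other markers. Over the 22 diet libraries the group-centred r of the summed markers with Hbb-bs was 0.18 for B and plasma cells, 0.21 for neutrophils, -0.27 for megakaryocytes and platelets and -0.44 for macrophages.

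Single markers also moved with these contrasts by edgeR, and those named here were chosen after their values were seen. In OCR versus OAL 5 of 10 stem cell markers were called lower (list median -0.30 beside 0.02 over all genes), among them Fgd5 (159 to 111 CPM), Ly6a (208 to 148 CPM) and Procr (249.4 to 178.6 CPM). Of the B and plasma cell markers 2 were lower, the antibody light chain gene Igkc (60.1 to 0.360 CPM, adjusted p = 7.0e-05) and Jchain (17.3 to 0.519 CPM, adjusted p = 9.9e-05), and the neutrophil marker Prtn3 was lower by 0.41 ± 0.09. Itgam, 1 of the markers the gate leaves out, was higher (1.58 to 3.10 CPM).

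In OCRRF versus OCR, 3 of 7 tested megakaryocyte and platelet markers were lower (Pf4, 41.1 to 20.6 CPM, Gp9, 39.25 to 27.3 CPM, and Itga2b, 209 to 157 CPM) and Vwf was higher (454 to 670 CPM). The list's median was -0.55 beside 0.11 over all genes. Ly6a was higher, and Kit and Hmox1 lower. The part of these cells in the globin and regulator differences was not tested.

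Of the wider erythroid program, 9 of 68 tested genes on 7 lists (13.2%) were called in OCR versus OAL, 5 higher and 4 lower, where 5.57% of all genes were. The lists were drawn up with earlier results of these data known, and nothing is read from that share. Of 12 heme synthesis genes 2 were called higher, among them Slc25a38 (0.59 ± 0.13, adjusted p = 0.0035), the mitochondrial glycine carrier. Of 16 red cell membrane and skeleton genes 2 were called higher, the ammonium channel gene Rhag, from 1.58 to 4.39 CPM (1.49 ± 0.26, adjusted p = 0.00033), and the water channel gene Aqp1 (0.40 ± 0.12, adjusted p = 0.038). Hemgn, a Gata1 target, was higher by 0.37 ± 0.09 (adjusted p = 0.013), 1 of 13 late erythroid genes. The lists' median log2 fold changes were 0.03, 0.31 and 0.01, beside 0.02 over all genes tested.

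Of 8 erythropoietin signalling genes 2 were lower, both of them targets of JAK-STAT signalling. Cish fell from 73.8 to 37.4 CPM (-0.97 ± 0.19, adjusted p = 0.0012) and Pim1 from 137 to 97.9 CPM (-0.47 ± 0.12, adjusted p = 0.017) by edgeR, while Epor was higher. DESeq2 called Cish but not Pim1 (adjusted p = 0.13). Of 11 transcription factor partners, Ldb1 (-0.29 ± 0.08, adjusted p = 0.016) and Nfe2 (-0.27 ± 0.08, adjusted p = 0.041) were lower. None of the 8 iron genes was called by edgeR (5 at an unadjusted p under 0.05, 1 by DESeq2, median log2 fold change 0.20), and none of the 6 other globin genes passed the count filter.

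Among the genes called in OCRRF versus OCR, Cish rose (0.82 ± 0.15, adjusted p = 0.00043) and Gfi1b (-0.76 ± 0.17, adjusted p = 0.0049), Zfpm1 (-0.56 ± 0.12, adjusted p = 0.0051), Aqp1 (-0.60 ± 0.14, adjusted p = 0.0091), Hemgn (-0.50 ± 0.14, adjusted p = 0.030), Car2 (-0.54 ± 0.12, adjusted p = 0.0071) and Aco1 (-0.56 ± 0.13, adjusted p = 0.0088) fell by edgeR. Gfi1b and Zfpm1 encode Gata1 partners, Car2 carbonic anhydrase II, and Aco1 iron regulatory protein 1. Hbq1a, a theta-globin gene downstream of the alpha-globins, had means of 0.495 CPM in OCRRF and 0.00791 CPM in OCR (adjusted p = 0.012), a level too low for a fold. In all, 9 of 70 tested genes on the 7 lists (12.9%) were called in this contrast, where 3.41% of all genes were. Of those named, DESeq2 did not call Gfi1b (adjusted p = 0.064) or Hbq1a.

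Short-term restriction gave few calls of any gene. In YCR versus YAL, 0 of 8 tested members were called by edgeR, 0 had an unadjusted p under 0.05 and DESeq2 called 0, where 0.257% of 18680 genes were called. With so small a share of all genes called, nothing is read from a count of 0, here or in the later comparisons with few calls. Gata1 was 12.47, 9.20, 9.98 and 8.29 CPM in YAL and 11.65, 10.48, 11.35 and 20.3 CPM in YCR, overlapping groups (0.46 ± 0.28). Epor differed by 0.17 ± 0.25, Klf1 by 0.35 ± 0.30 and Hbb-bs by -0.15 ± 0.89. The sign of Hbb-bs turned to 1.71 without YAL replicate 3, and that of Hba-a1 from 0.04 to -1.80 without YCR replicate 4, the globin-rich library of each group.

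Of the pathway genes, Cish fell in YCR (-1.14 ± 0.14, adjusted p = 0.011) and Gfi1b rose (0.79 ± 0.14, adjusted p = 0.048) by edgeR, 2 of 67 tested on the 7 lists (2.99%). The difference between old and young responses was fitted for all genes with an interaction term, by which 0.0424% of 28328 genes were called and none of the 9 members (3 at an unadjusted p under 0.05 and 0 by DESeq2). Its estimates were -2.01 ± 1.10 for Hbb-bs, 1.01 ± 0.43 for Gata1 and 0.74 ± 0.32 for Epor, given as a description because they rest in part on OCR versus OAL.

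In YCRRF versus YCR, 0 of 8 tested members were called by edgeR (3 at an unadjusted p under 0.05, 0 by DESeq2), where 0.0102% of 19535 genes were. Hbb-bs of YCRRF (0.863 to 3.74 CPM) lay below all YCR libraries (4.04 to 29.2 CPM) with a difference of -2.27 ± 0.71 (adjusted p = 0.44). Gata1 also lay lower without overlap, at 8.40, 2.31, 7.56 and 4.11 CPM in YCRRF (-1.28 ± 0.44, adjusted p = 0.51). Klf1 was scattered, at 12.7, 0.749, 26.5 and 7.12 CPM, and the library highest in Klf1 was the one with the high mitochondrial share, which also had the lowest Epor (2.75 CPM). Without it the Klf1 difference changed from 0.34 to -0.44 and that of Epor from -0.60 to -0.27.

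Neutrophil markers summed to 485 to 1885 CPM in YCRRF (9 of 10 with reads in every library) and 125 to 500 CPM in YCR (7 of 10), and B and plasma cell markers to 49.5 to 86.7 CPM (4 of 9) and 89.0 to 1424 CPM (8 of 9). No marker of either list was at 0 in all libraries of a group, and their part in the globin difference was not tested. None of 67 tested genes on the 7 pathway lists was called by edgeR in YCRRF versus YCR, with 10 at an unadjusted p under 0.05 and 2 called by DESeq2.

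Between old and young ad libitum mice the regulators and the heme gene went opposite ways. In OAL versus YAL 4 of 9 members were called by edgeR, where 14.8% of 23525 genes were. This contrast shares the OAL libraries with OCR versus OAL. Klf1 fell from 8.16, 4.73, 9.30 and 7.03 CPM in YAL to 1.235 to 2.46 CPM in OAL (-1.77 ± 0.33, adjusted p = 0.0072). Gata1 fell by 1.63 ± 0.32 (adjusted p = 0.0092) and Epor, from 13.3 to 18.3 CPM in YAL, by 0.65 ± 0.19 (adjusted p = 0.043). The ranges of Klf1, Gata1 and Epor did not overlap between the groups. How many of all genes do the same was not counted, so nothing is read from this.

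Alas2 was 1.36, 0.0630, 1.13 and 0.220 CPM in YAL and 7.38, 1.58, 5.45 and 7.75 CPM in OAL, higher by 3.02 ± 0.80 (adjusted p = 0.028). Hbb-bs (2.39 ± 0.85, adjusted p = 0.084) and Hba-a1 (2.25 ± 0.71, adjusted p = 0.054) did not pass, with YAL replicate 3 at 42.4 and 18.0 CPM inside the OAL ranges. Without that library 7 members were called, Hbb-bs at 4.27 and Hba-a1 at 3.50 among them. Hba-a1 also passed with DESeq2 (adjusted p = 0.035), with no filter on low counts (0.015) and with at least 10 counts required in every library (0.042), and Hbb-bs with no filter (0.024). Without OAL replicate 1, 3 or 4 only Klf1 and Gata1 were called, Alas2 then having an adjusted p of 0.087, 0.070 and 0.088. Epor had an adjusted p over 0.05 without any of YAL replicates 1 and 4 and OAL replicates 1, 2, 3 and 4. The old libraries also detected more genes, as above, which cannot be told apart from age.

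Markers of other cells moved with age too. Of 9 B and plasma cell markers 5 were called lower in OAL, among them Ighm (33.7 to 1.16 CPM) and Cd79a (12.7 to 0.660 CPM), and Jchain was higher (0.319 to 17.3 CPM). Of 7 tested megakaryocyte and platelet markers 3 were higher (Gp6, from 0.0376 to 0.598 CPM, Vwf, from 377 to 605 CPM, and Itga2b). Of the markers the diet gate leaves out, Cd3e (0.0158 to 0.666 CPM) and Il7r (0.0374 to 0.644 CPM) were higher and Flt3 and Cd34 lower. The YAL means of Gp6, Cd3e and Il7r lay under the level of 3 counts in those libraries (0.0841 to 0.172 CPM). Their rise cannot be told apart from the wider gene detection of the old libraries. Cd48, which only the transplant gate used, was lower too. Neutrophil markers had a median of -2.32, with Mpo lower (81.3 to 1.09 CPM) and Prtn3 higher (166 to 275 CPM), and Hmox1 of the macrophage list was lower. The summed lists ran from 97.9 to 194.5 CPM in YAL and 43.0 to 268 CPM in OAL for B and plasma cells, from 517.8 to 656 and 764 to 1007 CPM for megakaryocytes and platelets, and from 135.5 to 858 and 252 to 383 CPM for neutrophils. Their part in the differences of the members was not tested.

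Around these members, 15 of 67 tested genes on the 7 lists (22.4%) were called in OAL versus YAL, 2 higher and 13 lower, where 14.8% of all genes were. Car1, the carbonic anhydrase of early erythroid progenitors, fell from 60.7 to 3.61 CPM (-4.06 ± 0.65, adjusted p = 0.0036). Of 16 membrane genes, Ermap (-2.78 ± 0.46, adjusted p = 0.0044), Epb42 (-1.43 ± 0.33, adjusted p = 0.018) and Gypc (-0.57 ± 0.10, adjusted p = 0.0060) were among 4 that fell by edgeR, and Aqp1 (0.69 ± 0.19, adjusted p = 0.034) was among those that rose. The heme genes Ppox, Alas1 and Urod fell (-0.54 ± 0.16, -0.33 ± 0.09 and -0.27 ± 0.07), as did the ferritin genes Fth1 and Ftl1 (-0.33 ± 0.06 and -0.28 ± 0.08), Cbfa2t3, Tspan33 and Lyn. The median over all genes tested was 0.05, over the membrane list -0.36 and over the heme list -0.21.

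The knockdown groups started from other levels. The targeted genes were checked first. Kdr had a mean of 6.05 CPM in GFP_Scramble and 2.36 CPM in GFP_Kdr_shRNA without overlap (-1.35 ± 0.25, edgeR adjusted p = 0.25). In the double knockdowns Kdr went from 4.30 to 1.185 CPM without overlap (-1.86 ± 0.37, adjusted p = 0.27) and Bmpr1a from 4.82 to 1.98 CPM with overlap (-1.29 ± 0.72, adjusted p = 0.60). All 3 were lower as labelled, and none passed edgeR's threshold over all genes.

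Gata1 was 16.9 to 35.9 CPM in all 12 transplanted libraries, above the 1.69 to 20.3 CPM of the diet libraries apart from an overlap at the lower end. The experiments differ in mouse, sort, kit and sequencer, so this difference was not tested. In GFP_Kdr_shRNA versus GFP_Scramble, 0 of 8 tested members were called by edgeR (0 at an unadjusted p under 0.05, 0 by DESeq2), where 0.0149% of 20098 genes were. Hbb-bs differed by -1.47 ± 0.73, a value set by GFP_Scramble replicate 2 at 31.5 CPM, since without that library it was 1.16. Gata1 was 34.1 and 16.9 CPM in GFP_Scramble and 24.8, 31.9, 23.7 and 31.4 CPM in GFP_Kdr_shRNA, inside the scrambled range (0.13 ± 0.25). Klf1 was 6.78 and 9.24 against 16.2, 18.5, 5.97 and 7.90 CPM (0.60 ± 0.44), and Epor 15.11 and 15.05 against 11.4, 11.9, 12.46 and 14.9 CPM (-0.25 ± 0.15), below both scrambled values.

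Under the double knockdown the globins differed as widely within each hairpin pair as between groups, and 0 of 9 members were called by edgeR (1 at an unadjusted p under 0.05), where 0.00498% of 20072 genes were. Hbb-bs differed by 1.04 ± 1.31 and Gata1 by 0.03 ± 0.19. Klf1 was 31.9 and 14.3 CPM in Double_Scramble and 4.75, 5.504, 11.5 and 4.79 CPM in the knockdowns, lower without overlap by a log2 difference of -1.79 ± 0.42 (edgeR adjusted p = 0.30). DESeq2 called it at -1.79 (adjusted p = 0.0027). Its edgeR adjusted p ran from 0.095 to 0.30 over the other settings and from 0.16 to 0.95 with 1 library left out, and without Double_Scramble replicate 1 the difference was -1.11.

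Membrane and skeleton genes lay on the same side as Klf1 in the double knockdown. Of 16, 15 had a log2 fold change below 0, with a median of -1.55 beside -0.00054 over all genes tested, and none was called by edgeR (9 at an unadjusted p under 0.05, 2 called by DESeq2). Without Double_Scramble replicate 1 it was 12 of 16 with a median of -0.82. That library held the highest level of Klf1 and a neutrophil marker sum of 4868 CPM, against 1895 CPM in Double_Scramble replicate 2 and 474 to 3163 CPM in the knockdowns, with all 10 neutrophil markers read in each. The part of these in the difference was not tested. The 12 heme synthesis genes had a median of -0.06. None of the 68 tested genes on the 7 pathway lists was called by edgeR in the double knockdown, with 19 at an unadjusted p under 0.05 and 3 called by DESeq2. None of the 67 tested pathway genes was called by edgeR in the Kdr knockdown, with 10 at an unadjusted p under 0.05 and 2 called by DESeq2.

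By group-centred correlation of log2 CPM over the 22 diet libraries, among 12321 genes averaging 5 CPM or more, those most like Hbb-bs were Pim1 (r = 0.78), Selenot (0.74), Pip4k2b (0.74), Ggnbp1 (0.72) and Churc1 (0.72). Those most like Klf1 were Bag3 (0.88), Car1 (0.84), A430033K04Rik (0.84), Fut11 (0.83) and Hmmr (0.83). Among the diet groups Klf1 spread most widely in YCRRF (0.749 to 26.5 CPM), which holds the library with the high mitochondrial share. How far r with Klf1 in the diet libraries rests on that group was not tested. On the 7 pathway lists, among genes averaging 1 CPM or more, only Pim1 reached r = 0.5 with Hbb-bs, where 1.72% of 16960 genes did. With Klf1, r of at least 0.5 was reached by 4 of 16 membrane genes (Ermap, Rhd, Kel and Sptb), 5 of 12 late erythroid genes (Car1, Sphk1, Blvrb, Hemgn and Tspan33), Urod and Steap3, where 4.86% of genes did. In the transplanted cells 9 of 15 membrane genes and 5 of 12 heme synthesis genes reached it with Klf1 (10.48% of 15262 genes), and 3 and 0 with Hbb-bs (8.94%).

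Chromatin at these genes was read from histone ChIP-seq of OCR HSCs (2 libraries a mark), where the deposited tables list a mean signal for 30009 promoter windows, 750 bases long for H3K4me3, a mark of active promoters, and 2000 for H3K27me3, a Polycomb mark. H3K4me3 signal was low at the products. The authors describe using uniquely mapped reads for ChIP-seq and ATAC-seq, so reads matching both copies of a globin pair may be missing. At the near-identical Hba-a1 and Hba-a2 a low signal cannot be told apart from such a loss. Hba-a2 stood at percentiles 0.970 and 1.99, Hba-a1 at 2.81 and 5.12, Alas2 at 4.70 and 7.61, Hbb-bs at 14.3 and 15.5, Slc4a1 at 16.0 and 16.25 and Hbb-bt at 19.9 and 33.1. Klf1 (46.0 and 45.8) and Epor (46.0 and 47.0) stood near the middle, with signals of 5.82 and 5.335, and 5.83 and 6.31, beside medians of 9.28 and 8.78 over all promoters. Gata1 stood at 27.9 and 32.75.

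H3K27me3 divided the globins by locus. Hba-a1 (percentiles 82.0 and 73.3), Hba-a2 (86.6 and 83.7) and Slc4a1 (83.0 and 84.0) were in the upper part of the promoters, while Hbb-bs (6.23 and 13.4) and Hbb-bt (10.53 and 17.8) were in the lower part. Alas2 (17.7 and 29.2) and Gata1 (28.1 and 27.6) were below the middle, Klf1 at 53.3 and 46.4 and Epor at 61.7 and 63.9. The tables' windows begin at the start site, and their symbols for Hba-a1 and Hba-a2 are exchanged relative to the gene models, so windows were matched by position.

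ATAC-seq, which reads open chromatin, was available for OCR (n = 4) and OCRRF (n = 2) as counts over consensus peaks, 15721335 to 19558148 counts a library. Within 10 kb of the members' start sites lay 17 peaks, all tested, and 0 were called by edgeR at a fold over 1.5 and a mean log2 CPM over 1.5 (1 at an unadjusted p under 0.05, 0 by DESeq2), where 0.221% of 123372 peaks were. No peak centre lay within 1 kb of a globin start site, with the same limit on reads that match both copies of a pair. The Klf1 peak centred 1209 bases downstream of its start (29.4 CPM in OCR, 28.8 in OCRRF) and the Epor peak at 1322 bases (36.5 and 32.0 CPM) were at the 94.2 and 95.6 percentiles of peaks by level. Gata1's nearest peak was weak (0.688 and 0.489 CPM, percentile 11.7), and the peak at -3546 bases stood at 4.57 and 3.70 CPM. The peaks nearest to Hba-a1 (chr11:32286599-32287463, 7.63 and 7.91 CPM) and Hba-a2 (chr11:32299750-32300904, 8.34 and 9.12 CPM) overlapped the gene models of the theta-globins Hbq1b and Hbq1a. Of the 17 peaks 6 lay under the level threshold and could not be called, among them both Alas2 peaks and 2 of the 3 Gata1 peaks. With so small a share of all peaks called, nothing is read from the count of 0.

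At the beta-globin locus a peak of PU.1, the myeloid and lymphoid ETS factor encoded by Spi1, was called in all 6 libraries (OAL, OCR and OCRRF, n = 2 each). The stretch common to the 6 peaks covers 165 bases, chr7:103812307-103812471, its near edge 53 bases beyond the 3′ end of the Hbb-bt gene model. It is shown on the plus strand because it is the only peak near a member shared by all libraries, with its GAGGAA match (minus strand, chr7:103812368-103812373) in capitals.
shared PU.1 region: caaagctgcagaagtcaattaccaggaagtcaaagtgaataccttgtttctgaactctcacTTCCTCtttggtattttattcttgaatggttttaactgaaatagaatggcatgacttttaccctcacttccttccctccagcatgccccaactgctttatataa

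MACS2 fold enrichment there was 9.82 and 8.17 in OAL, 11.4 and 9.75 in OCR and 8.35 and 5.96 in OCRRF, so both OCR libraries were above both OCRRF libraries, and the OAL libraries overlapped the other groups. With 2 libraries a group and peaks called per library, this was not tested. OCR replicate 1 also had the most peaks (5464) and OCRRF replicate 2 the fewest (2262). The region lies in an ATAC peak (chr7:103812122-103812824) at 16.6 CPM in OCR and 15.0 CPM in OCRRF, percentile 88.0. Within 10 kb a PU.1 peak in any library was found at 2 of the 9 members, Hbb-bt and, in OAL replicate 1 only, Epor (7897 bases away), where 13.8% of 30009 promoters had a peak in any library and 2.85% in all 6. Within 2 kb only Hbb-bt had one (7.24% and 1.39% of promoters).

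**Figure D5:**
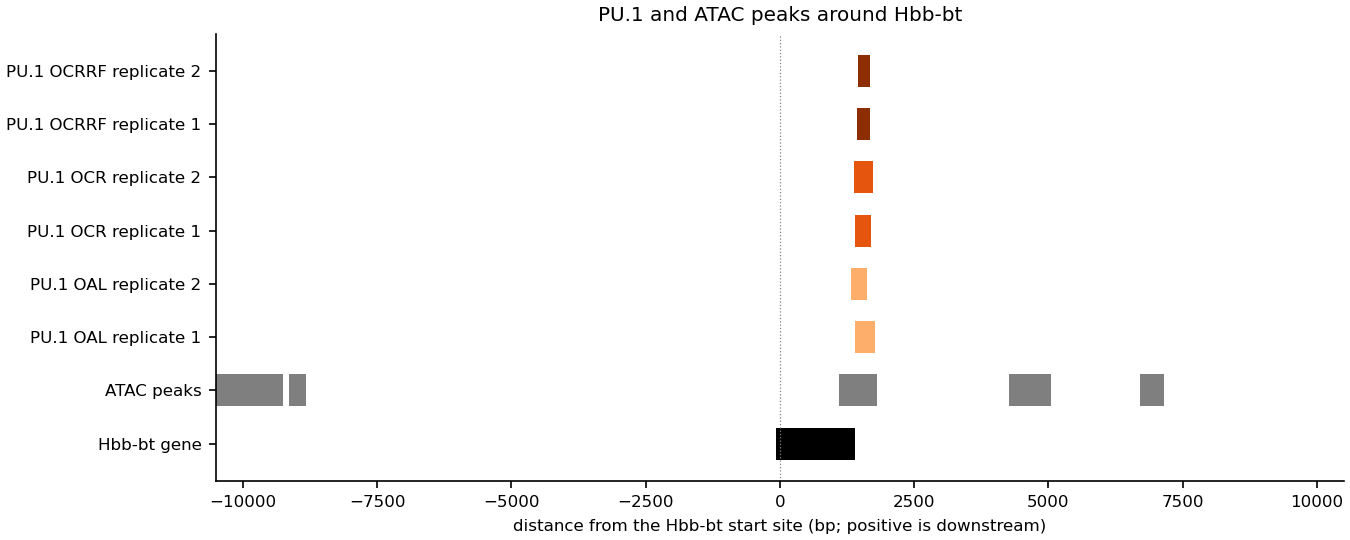
PU.1 peaks of 6 libraries, ATAC consensus peaks and the Hbb-bt gene model by distance from the Hbb-bt start site (bp, positive downstream; bars to scale). All 6 PU.1 peaks fall at the 3′ end of the gene, inside an ATAC peak centred 1450 bp downstream of the start.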

How the data were processed

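The authors deposited raw RNA counts per gene (Trim Galore and cutadapt, STAR, featureCounts; mm10, GENCODE M22) and ATAC-seq counts per consensus peak (BWA, MACS2). The authors deposited histone ChIP data as mean signal per promoter window, on a scale not stated. PU.1 peaks were called by the authors for each library with MACS2 and deposited with fold enrichment over background. The deposited PU.1 peaks also carry −log10 p and q values from MACS2. The authors' peak score is the MACS2 score as deposited. Strand and multi-mapping settings of the counting are not given in the sources used here. Groups came from the labels. Each comparison was fitted on its own libraries with edgeR 4.0.16 in R 4.3.3 (filterByExpr, TMM, quasi-likelihood test, Benjamini-Hochberg over all genes tested), with the 2 double-knockdown hairpins as 1 arm. SE was taken as the absolute log2 fold change over the root of F. Levels are TMM CPM, and correlations used log2 CPM with a prior count of 2. The fits were tested on simulated data. Floors are 3 counts and cover counting error only. Named were the 9 members, up to 3 called genes a direction in each of 7 pathway lists, and the 5 genes most like Hbb-bs and Klf1. Some list genes that were counted are not reported here by name. Members and lists were chosen with earlier results of these data known. Alternatives were DESeq2 1.42.0, its size factors, other count filters, summed globin pairs, the replicate block, left-out libraries and other PU.1 windows. Numbers were not taken to pair libraries, since no source ties them and no comparison of 3 or more pairs had a same-number correlation over 0.1. Replicates differed beyond sampling noise in all 41 pairs. ATAC-seq and histone libraries of OAL were not analysed here.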

Additional observations from a re-analysis of the deposited data

Results flagged for a closer look

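In 15 of 66 sets of 4 libraries, 1 library lay far from the others of its group by Dixon's criterion. Chance alone meets it in about 1 in 20 where values are normally distributed. It was applied to CPM without a log, where that rate need not hold, so no excess is read from the count. The members share libraries, so these are not separate events. YAL replicate 3 stood high in Hba-a1 at 18.04 CPM (others 2.742 to 2.854), in Hba-a2 at 10.46 CPM (0.5987 to 1.317) and in Hbb-bs at 42.43 CPM (3.074 to 3.971). Its sums were 83.56 CPM for the 4 globins (others 13.36 to 25.06) and 70.93 CPM without Hbb-bt (7.246 to 7.802). YCR replicate 4 stood high in Hba-a1 at 20.86 CPM (1.023 to 3.432) and in Gata1 at 20.29 CPM (10.48 to 11.65). YCRRF replicate 2 stood high in Hba-a1 at 3.058 CPM (0.2825 to 0.3653) and in Hba-a2 at 0.8737 CPM (0 to 0.1412). YCRRF replicate 3 stood high in Hbb-bt at 23.8 CPM (7.736 to 9.041). GFP_Kdr_shRNA replicate 2 stood high in Hba-a1 at 10.06 CPM (2.207 to 2.82), in the sum of Hba-a1, Hba-a2 and Hbb-bs at 24.02 CPM (7.1 to 9.985) and in Slc4a1 at 0.4814 CPM, where the other 3 had no read. Klf1 was low in OAL replicate 1 at 1.235 CPM (2.373 to 2.463) and high in OCR replicate 4 at 5.334 CPM (1.666 to 2.089).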

How the results depend on the processing

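Of the values recomputed under other settings, 350 kept their direction and side of the threshold, 10 passed it newly, 6 lost it and 5 reversed; with 1 library left out these counts were 525, 6, 15 and 26. The cause of the changes was not tested. In OCRRF versus OCR, DESeq2 called 2 members, and 2 to 6 were called with 1 library left out. In OAL versus YAL 2 to 7 were. With no count filter 1 member was called in YCRRF versus YCR, and DESeq2 called 1 in the double knockdown. A PU.1 window of 2 kb held 1 member and of 50 kb 4. In the 4 comparisons with 4 same-numbered pairs the correlations of their deviations ran from -0.143 to 0.082, and in OCRRF versus OCR (2 pairs) they were -0.171 and -0.052. In the Kdr knockdown (2 pairs) they were 0.013 and 0.185, with each library closest to its own number, a hint from the data and not the design. The block called Hba-a1, Hba-a2 and Hbb-bs in OAL versus YAL (adjusted p = 0.027, 0.030 and 0.031). The replicate block turned Klf1 in OCRRF versus OCR to 0.044 and in YCRRF versus YCR to -0.348, Hba-a1 in YCR versus YAL to -0.47 and Hbb-bs there to 0.478, none called; with no filter Hba-a1 there was -0.004. Leave-one-out ranges that crossed 0 were, in OCRRF versus OCR, Alas2 -0.108 to 1.119, Hbb-bt -0.146 to 0.818 and Klf1 -0.787 to 0.012. In YCR versus YAL they were Hba-a1 -1.803 to 1.268, Hba-a2 -1.576 to 1.104, Hbb-bs -1.16 to 1.711 and Epor -0.029 to 0.337, and in YCRRF versus YCR Klf1 -0.44 to 0.734. In the Kdr knockdown they were Hba-a1 -2.062 to 1.842, Hba-a2 -2.522 to 1.549, Hbb-bs -2.343 to 1.164 and Gata1 -0.288 to 0.728. In the double knockdown they were Hba-a1 -0.115 to 3.097, Hbb-bt -0.204 to 0.889, Alas2 -0.088 to 1.699, Slc4a1 -1.22 to 1.9 and Gata1 -0.243 to 0.369. Counts of all called genes moved by over 1.5 times in OCRRF versus OCR (1110; DESeq2 2352, block 3437), YCR versus YAL (48; DESeq2 454, no filter 368, at least 10 counts 98, block 7), YCRRF versus YCR (2; DESeq2 280, no filter 275, block 0) and OAL versus YAL (3486; no filter 6671, at least 10 counts 1852, block 1651). They did so too in the Kdr knockdown (3; DESeq2 303, no filter 82, block 26), the double knockdown (1; DESeq2 332, no filter 19, block 0), the interaction (12; DESeq2 210, no filter 23, at least 10 counts 20, block 3) and ATAC-seq (273; block 764). With 1 library left out the counts of all called genes ran from 352 to 2755 in OCRRF versus OCR (352 without OCRRF replicate 1, 522 without OCRRF replicate 2, 645 without OCR replicate 2, 1275 without OCR replicate 1, 1660 without OCR replicate 4 and 2755 without OCR replicate 3), 6 to 28 in YCR versus YAL, 0 to 10 in YCRRF versus YCR, 1475 to 5358 in OAL versus YAL, 0 to 12 in the Kdr knockdown, 0 to 1 in the double knockdown, 2 to 27 in the interaction and 98 to 367 in ATAC-seq, so the shares of all genes called are uncertain to that extent. In OCR versus OAL they ran from 1106 to 1655. With no filter the median of all genes in OAL versus YAL was 1.07. With 2 libraries in an arm, leaving out 1 assumes that the lone library varies like the others, and members at a few reads a library are limited by depth.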
